A study of Chamaelirium luteum with 2 samples.

Results

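Peaks of open chromatin outside the 22 scaffolds of the Cha. luteum assembly made up a small share of each peak list, with 643 of 39233 peaks in replicate 1 (1.64%) and 678 of 41385 in replicate 2 (1.64%). They were selected only by the name of the sequence that carries them, which is numbered 23 or more. The study has 1 condition, fresh leaves of Cha. luteum plants grown in a greenhouse without treatment, and both libraries (replicates 1 and 2) were made from about 75000 nuclei each. The plants behind each library are not named, so the SD between the libraries may be technical. The code in the peak names of replicate 2 differs from the code that the labels give to both libraries, and the labels were followed.

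In ATAC-seq, the Tn5 transposase places sequencing adapters mainly in DNA that is not wrapped around nucleosomes, and stacks of the resulting fragments mark accessible regions such as promoters and enhancers. The scaffolds of an assembly are made by joining contigs through chromosome contacts, and contigs that find no partner stay behind as short sequences of their own. In plant assemblies such remainders are known to hold repeats, ribosomal DNA and pieces of organelle genomes besides ordinary nuclear DNA. Which of these the sequences described here hold was not analysed, because their bases, lengths and gene annotation were not used, and for the same reason no gene, promoter or motif is named and the leaf label was not checked against marker genes.

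Each listed peak has a summit, a fold enrichment and a q-value from MACS. The number of fragments stacked at the summit and the background that MACS modelled around it were solved from the deposited values. The lowest background that a peak can have is the genome-wide one, which was 3.38 fragments in replicate 1 and 3.18 in replicate 2, a ratio of 1.06. With 2 libraries of 1 condition there are no groups to test, so values are given per library with their mean ± SD (n = 2), and no difference between kinds of sequences was tested.

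Over both libraries, 83 sequences numbered 23 or more carried a peak, 78 of them in both. Their numbers ran from 23 to 168, and 63 of the 146 numbers in that range had no listed peak, including the 10 in a row from 30 to 39. A missing number may be a sequence without a peak or a number that is not in use. Sequences 23, 24 and 25 carried 226 peaks in replicate 1 and 254 in replicate 2, and the 80 sequences numbered 26 or more, called short sequences here, carried 417 and 424. On the neighbouring scaffold 22, the last one that does not belong to the set, there were 730 and 745 peaks, against 163 and 193 on sequence 23. Among short sequences with a peak, the median was 3.5 peaks in replicate 1 and 3 in replicate 2. A single peak was listed on 24 short sequences in replicate 1 and on 19 in replicate 2, while 10 or more were listed on 14 and 16. The last peak of a short sequence ended at 58.9 kb in the median and at 820 kb at the most.

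**Figure D1:**
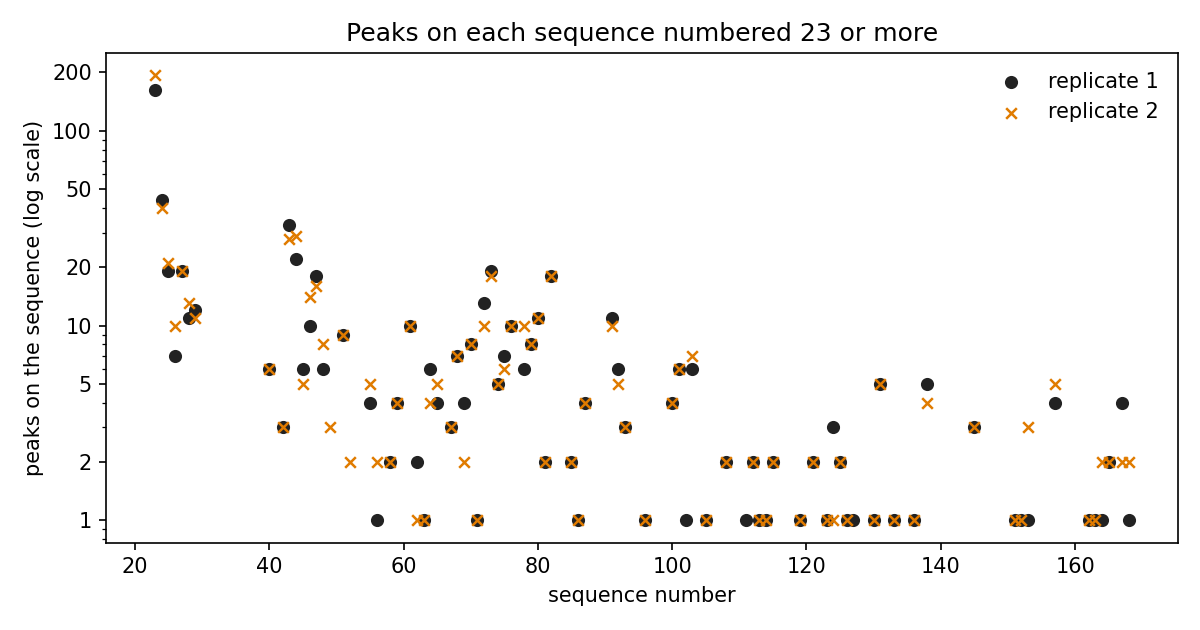
Number of peaks (log scale) on each sequence numbered 23 or more, with replicate 1 as dots and replicate 2 as crosses. Sequence 23 stands above all others with 163 and 193 peaks, and sequences with higher numbers mostly carry between 1 and 19 peaks.

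Sequence 23 was the richest in peaks of the 3 larger sequences. From the first to the last peak it spanned 2505 kb, with 65.1 peaks per spanned Mb in replicate 1 and 77.0 in replicate 2, where the 22 scaffolds had a median of 56.8 and 63.4 and a highest value of 71.4 and 74.2. The paper lists a centromere on some of these scaffolds and reports evenly spread accessible regions except in centromeres. Scaffolds with and without a listed centromere were not separated here. In replicate 1, 8 scaffolds had more than sequence 23, and in replicate 2 it was 0. Its summits were spread over the whole span, with 30, 43, 33, 31 and 22 in successive windows of 500 kb in replicate 1 and 36, 47, 38, 34 and 33 in replicate 2, and 4 and 5 beyond. The median distance between neighbouring summits was 9.78 kb in replicate 1 and 9.37 kb in replicate 2, somewhat wider than on the median scaffold (9.24 and 8.80 kb). The longest run free of peaks in both libraries, from 2111663 to 2178088, measured 66.4 kb.

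Sequences 24 and 25 were poorer in peaks. Sequence 24 carried 44 peaks in replicate 1 and 40 in replicate 2 over 1112 kb, or 39.6 and 36.0 per spanned Mb. Sequence 25 carried 19 and 21 over 1074 kb, or 17.7 and 19.6 per spanned Mb. Both lay below the median scaffold and above the lowest, scaffold 17, which had 5.81 and 6.01. Besides scaffold 17, only scaffold 20 lay below sequence 25, with 13.0 and 15.1. All other scaffolds had at least 36.7 in replicate 1 and 41.1 in replicate 2. Most of scaffold 17 and of scaffold 20 is listed as centromere in the paper. The median spacing was 11.0 and 13.5 kb on sequence 24, and 46.1 and 46.0 kb on sequence 25. The longest run free of peaks was 133 kb on sequence 24, from 765778 to 898566, and 156 kb on sequence 25, from 167713 to 323713. These spans are measured between peaks and leave out the ends of each sequence.

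The background around the peaks fell in the same order. On sequence 23 the median was 6.63 (replicate 1) and 6.11 fragments (replicate 2). On sequence 24 it was 3.59 and 3.61. On sequence 25 the median was the genome-wide background itself, at which 18 of 19 peaks in replicate 1 and 19 of 21 in replicate 2 stood. The median summit held 32 and 29 fragments on sequence 23, 33.5 and 35 on sequence 24, and 18 and 19 on sequence 25. The median fold was highest on sequence 24, at 6.07 in replicate 1 and 7.18 in replicate 2, while it was 4.40 and 4.39 on sequence 23 and 4.34 and 4.78 on sequence 25. The libraries differed by 1.11 on sequence 24, and both its values were above those of sequences 23 and 25.

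The strongest peaks of these 3 sequences stayed within the range of the scaffolds. On sequence 25, the peak from 552404 to 553153 had a fold of 13.1 in replicate 1, and its counterpart from 552395 to 553128 had 15.8 in replicate 2. On sequence 24, the highest fold was 13.8 in replicate 1, from 283951 to 284581, and 14.5 in replicate 2, from 739229 to 739604. On sequence 23 it was 13.9 in replicate 1, from 1017507 to 1018012, and 19.0 in replicate 2, from 1909290 to 1909818. The highest fold on the 22 scaffolds was 27.0 in replicate 1 and 31.5 in replicate 2, and the highest number of summit fragments was 341 and 395, against 240 and 264 on sequences 23 to 25.

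Most peaks of these sequences were found in both libraries. A peak was counted as shared when it overlapped a peak of the other library by at least 1 bp, which held for 82.2% of all peaks of replicate 1 and 77.9% of all peaks of replicate 2. Shares of both libraries count the same overlaps, so the SD between them mainly follows the peak totals and is not a spread of independent measurements. On sequence 23, 133 of 163 peaks of replicate 1 were shared (81.6%) and 134 of 193 of replicate 2 (69.4%). On sequence 24 it was 36 of 44 and 36 of 40 peaks, and on sequence 25 it was 17 of 19 and 17 of 21. The share of all 3 together was 82.3% in replicate 1 and 73.6% in replicate 2 (78.0 ± 6.14%, SD, n = 2), so it lay at the share over all peaks in replicate 1 and below it in replicate 2. Peaks without a counterpart were weak, as on the 22 scaffolds. The 30 of replicate 1 and the 59 of replicate 2 on sequence 23 had a median of 20.5 and 18 summit fragments, against 37 and 41 for the shared ones. On the scaffolds it was 19 in both libraries, against 38 and 40. All peaks of sequences 23 to 25 with a -log10 q of 20 or more, 72 in replicate 1 and 85 in replicate 2, were shared. The share of such peaks on the scaffolds was nearly the same, at 99.9% and 99.6%.

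The short sequences carried peaks of very different strength. Their median summit held 45 fragments in replicate 1 and 43.5 in replicate 2 (44.2 ± 1.06, SD, n = 2), against 32 and 33 on the 22 scaffolds and 30 and 28.5 on sequences 23 to 25. The 90th percentile was 1301 fragments in replicate 1 and 647 in replicate 2, where the scaffolds had 84 and 92. No peak of the 22 scaffolds or of sequences 23 to 25 reached 400 summit fragments in either library, but 124 peaks of the short sequences in replicate 1 and 103 in replicate 2 did. Of the peaks on short sequences, 40.05% in replicate 1 and 34.2% in replicate 2 were in the top decile of -log10 q over all peaks. The median fold was 5.48 and 5.50, somewhat above the 4.77 and 5.02 of the scaffolds. The median background, at 5.16 and 5.14 fragments, was below the 5.81 and 5.53 of the scaffolds, although the 90th percentile reached 275 and 128 fragments, against 11.2 in both libraries on the scaffolds. Of the peaks on short sequences, 30.2% in replicate 1 and 32.1% in replicate 2 stood at the genome-wide background, against 14.1% and 13.6% on the scaffolds. Backgrounds on short sequences thus stood more often at the genome-wide value, the lowest possible in both kinds, and also reached higher values than on the scaffolds. Weak peaks were not more frequent, as a -log10 q under 5 was found for 9.11% and 9.43% of the peaks on short sequences and for 16.7% and 15.7% on the scaffolds.

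Among the 10 short sequences with the most peaks, 7 did not have a high background. Sequence 43 carried 33 peaks in replicate 1 and 28 in replicate 2, sequence 44 carried 22 and 29, and sequence 27 carried 19 in both. Sequence 47 had 18 and 16, sequence 46 had 10 and 14, sequence 28 had 11 and 13, and sequence 29 had 12 and 11. Their median background lay between 3.38 and 5.98 fragments in replicate 1 and between 3.18 and 6.24 in replicate 2. Peaks of sequences 43 and 27 were narrow, with a median width of 282 bp on both in replicate 1 and of 281 and 303 bp in replicate 2, below the lowest value of any scaffold in that library (297 and 317 bp). The median spacing on sequence 27, at 36.2 and 29.0 kb, was above that of any scaffold, and so was the median fold on sequence 46, at 7.04 and 6.38. In replicate 1, 20 of 33 peaks were shared on sequence 43 and 7 of 12 on sequence 29, but 21 of 22 on sequence 44 and 10 of 10 on sequence 46. In replicate 2 these sequences were alike, with 20 of 28, 8 of 11, 21 of 29 and 10 of 14.

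The other 3 of the 10 (sequences 73, 82 and 72) belonged to 13 sequences whose median background was over 5 times the genome-wide value in each library. These were sequences 65, 68, 70, 72, 73, 76, 79, 80, 82, 87, 91, 101 and 145, and they carried 122 peaks in replicate 1 and 118 in replicate 2. The last of these peaks ended 122 kb from base 1. At the median peak, the summit held 1166.5 fragments in replicate 1 and 558.5 in replicate 2, and the median background was 224 and 108 fragments. The fold was nevertheless close to that of other peaks, at a median of 5.42 and 4.95. The background was highest on sequences 73 and 76, with a median of 753 and 345 fragments on sequence 73 and of 526 and 364 on sequence 76, so that their order differed between the libraries. Sequence 65 came next with 415 and 199. On sequence 145, the shortest of them by its last peak, 3 peaks filled the first 1.63 kb.

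High backgrounds came with low folds. This follows in part from the solution, because the background was solved from the fold and summit fragments did not exceed 1646 and 809. Of the peaks on these 13 sequences, 78 in replicate 1 and 67 in replicate 2 had a background over 100 fragments, and their fold reached at most 8.76 and 7.17. The peak with the most fragments of replicate 1, 1646 on sequence 76 from 78452 to 78927, had a background of 1176 fragments and a fold of 1.399. In replicate 2 the most fragments were 809, on sequence 82 from 3580 to 5372, with a background of 244 and a fold of 3.31. On the same sequences, 12 peaks in replicate 1 and 16 in replicate 2 had a background under 2 times the genome-wide one, with a fold of up to 48.2 and 47.0. Background also varied along a single sequence. On sequence 73, the peak from 8040 to 8499 had 1275 fragments and a background of 22.99 in replicate 1, and 612 fragments and a background of 10.9 in replicate 2. Its 15 shared peaks between 98167 and 122464 had backgrounds of 422 to 1017 fragments in replicate 1 and of 196 to 474 in replicate 2.

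**Figure D2:**
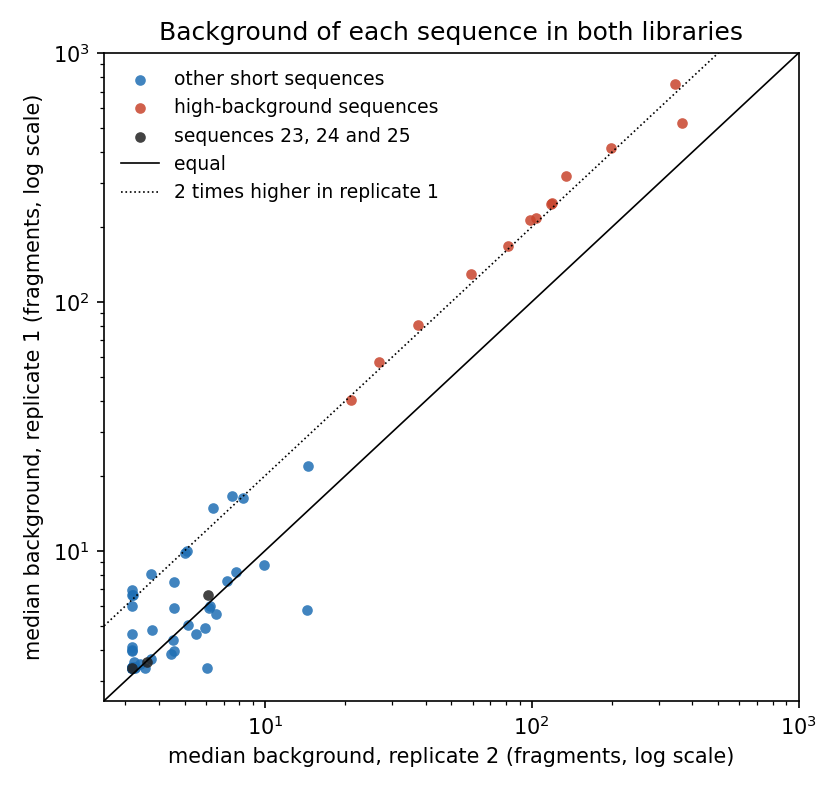
Median background of the peaks on each sequence with peaks in both libraries, replicate 1 against replicate 2 (fragments, log scales). The 13 high-background sequences lie along the dotted line at 2 times higher values in replicate 1, apart from sequence 76 (526 and 364), while sequences 23, 24 and 25 lie near the line of equal values.

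Wide peaks were concentrated on the high-background sequences. A width of 1 kb or more was found for 33 of 417 peaks of the short sequences in replicate 1 (7.91%) and 30 of 424 in replicate 2 (7.08%), against 2.60% and 2.59% on the 22 scaffolds and 3.10% and 3.15% on sequences 23 to 25. Of these, 23 in replicate 1 and 19 in replicate 2 lay on the 13 high-background sequences. The widest peak of either library ran from 98167 to 102089 on sequence 73 (3923 bp) in replicate 1 and from 98174 to 102097 (3924 bp) in replicate 2, so its edges differed by 7 and 8 bp. In replicate 1, the next were the peaks of sequence 76 from 74740 to 78083 (3344 bp) and from 81197 to 84443 (3247 bp). In replicate 2 they were that of sequence 73 from 114591 to 116837 (2247 bp) and that of sequence 65 from 35954 to 38196 (2243 bp). The last is part of 1 peak of 3015 bp in replicate 1, from 35172 to 38186. The median width of all peaks on short sequences was 369 bp in replicate 1 and 356 bp in replicate 2 (362 ± 9.19, SD, n = 2), and its distance from the 369 and 365 bp of the scaffolds was within the spread between the libraries. On sequences 23 to 25 it was 383.5 and 382 bp, 14.5 and 17 bp more than on the scaffolds.

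Neighbouring summits lay closer together on the short sequences than elsewhere. The median spacing was 6.27 kb in replicate 1 and 5.50 kb in replicate 2 (5.89 ± 0.539 kb, SD, n = 2). It was 9.10 and 8.69 kb on the 22 scaffolds and 11.2 and 10.9 kb on sequences 23 to 25 (11.0 ± 0.185 kb). On the high-background sequences alone the median spacing was 1.91 and 1.87 kb, while on the other short sequences it was 11.0 and 9.63 kb. Spacings under 1 kb made up 11.5% and 14.4% on the short sequences and 6.28% and 6.74% on the scaffolds.

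**Figure D3:**
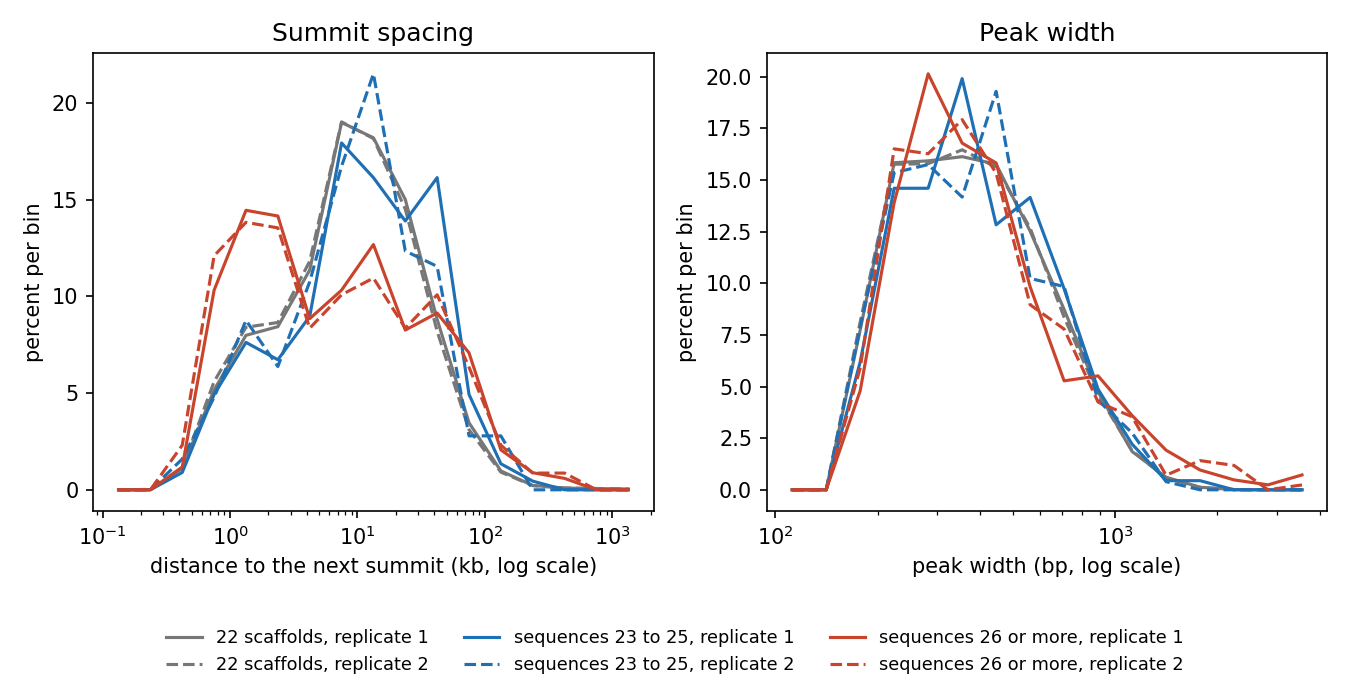
Distance between neighbouring summits (left, kb) and peak width (right, bp) on log scales, as the percent of values per bin, for the 22 scaffolds, sequences 23 to 25 and sequences 26 or more, with replicate 1 as solid and replicate 2 as dashed lines. The short sequences have their highest maximum of spacings near 1 to 3 kb, a lower one near 10 to 18 kb, and a tail of peaks wider than 1 kb. The scaffold lines of both libraries nearly coincide.

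The libraries differed most on the short sequences in the number of fragments at shared summits. Overlapping peaks formed 363 pairs on the short sequences, 189 on sequences 23 to 25 and 31947 on the 22 scaffolds. On the scaffolds, the ratio of summit fragments in replicate 1 over replicate 2 had a median of 0.93, with 5% of pairs below 0.656 and 5% above 1.33. On sequences 23 to 25 the median was 0.90, with 0.88 on sequence 23, 0.99 on sequence 24 and 1.00 on sequence 25. On the short sequences the median was 1.30, but few pairs lay near it. The ratios formed 2 separate maxima, with 51 pairs at a log2 ratio from -0.2 to 0, 8 pairs from 0.4 to 0.6 and 93 pairs from 1 to 1.2.

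A ratio over 1.5, a limit chosen after the values were seen, was found for 2.31% of the pairs over all sequences. It was found for 172 of 363 pairs on the short sequences (47.4%), for 3 of 189 on sequences 23 to 25 (1.59%) and for 575 of 31947 on the scaffolds (1.80%). Each of the 3 on sequences 23 to 25 came from a peak of replicate 1 that overlapped more than 1 peak of replicate 2. With the other peak its ratio was 0.89, 0.97 and 0.70. Such cases were not counted on the short sequences or the scaffolds. Among pairs with a mean of 100 or more summit fragments, where counting error is smaller than in weaker pairs, it was found for 5.20% over all sequences. Of these pairs, 149 of 158 on the short sequences, 0 of 20 on sequences 23 to 25 and 5 of 2783 on the scaffolds were over 1.5. With a mean of 200 or more they were 133 of 134 on the short sequences and 0 of 131 on the scaffolds, which had a median of 2.07 and 0.80. Pairs with a mean of 400 or more were listed only on the short sequences, and all 116 were over 1.5.

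**Figure D4:**
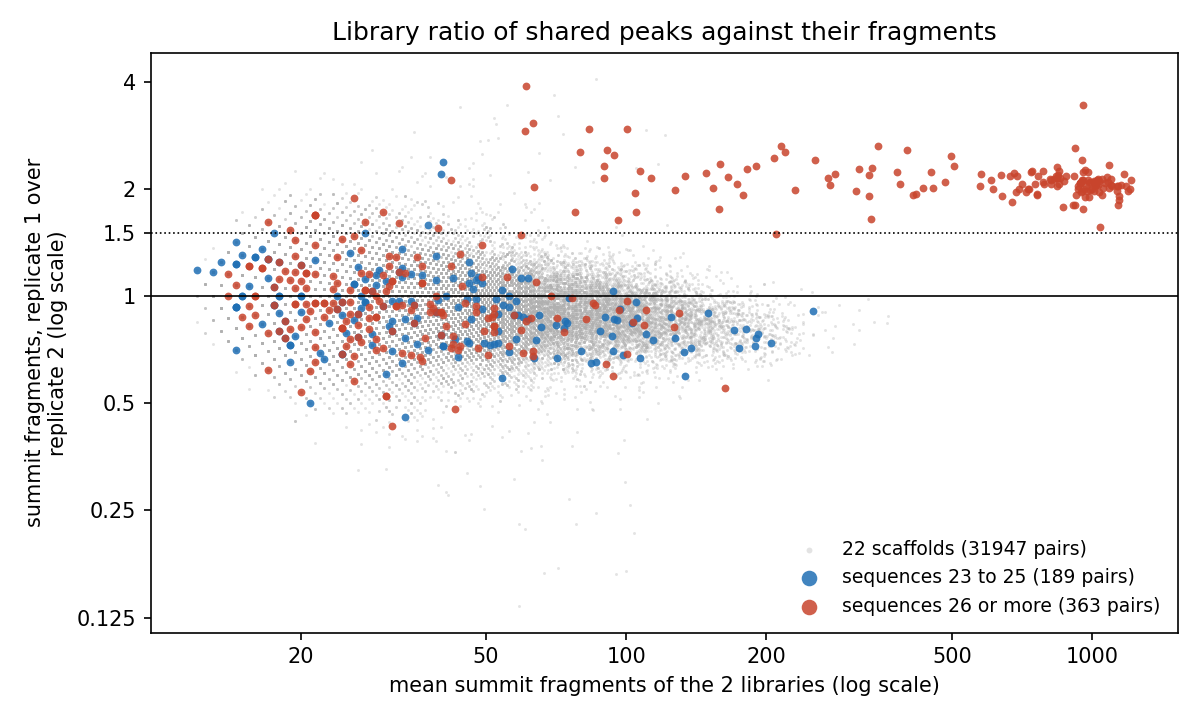
Ratio of summit fragments, replicate 1 over replicate 2, of each shared pair against the mean summit fragments of both libraries (log scales), with the solid line at 1 and the dotted line at 1.5. Pairs of the 22 scaffolds and of sequences 23 to 25 lie around 0.93 and 0.90, while the pairs of short sequences with 200 or more fragments form a band near 2.07.

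Pairs of the same sequence mostly lay on the same side of 1.5. Of the 52 short sequences with 2 or more pairs, 24 had every pair over 1.5, 21 had none over 1.5 and 7 had pairs on both sides. With the 22 sequences that have a single pair, 36 of 74 had every pair over 1.5. The 36 included all 13 high-background sequences, whose medians ranged from 1.93 on sequence 87 to 2.16 on sequence 68. All 119 of their pairs were over 1.5, with 5% below 1.84 and 5% above 2.48. The background of those pairs differed between the libraries by the same factor, with a median ratio of 2.12 (their median fold was 5.42 and 4.95). On sequence 87, for example, the 4 peaks had 169, 838, 1288 and 908 fragments in replicate 1 and 85, 440, 681 and 464 in replicate 2. Their ratios thus ran only from 1.89 to 1.99, although the peaks differed several-fold in fragments.

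The remaining 23 of the 36 sequences did not have a high background and carried few peaks, 49 in replicate 1 and 46 in replicate 2. There was a single peak on 12 of them in replicate 1 and on 11 in replicate 2, and at most 7 and 6. Their summits were tall in the median but ranged from 26 to 1400 fragments in replicate 1 and from 14 to 694 in replicate 2. At the median they held 253 fragments in replicate 1 and 116.5 in replicate 2, and the background around them was 6.0 and 3.18 fragments. Where a sequence carried more than 1 peak, the median spacing was 16.6 and 16.9 kb. The median fold was 31.7 and 25.9, against 5.02 and 5.08 on the 38 short sequences with a median ratio of 1.5 or less. Their median ratio was 2.12, and the medians of the sequences ranged from 1.64 to 2.90, the latter on sequence 163. On sequence 96 the only peak had 385 fragments in replicate 1 and 175 in replicate 2, a ratio of 2.20 with a 95% Clopper-Pearson counting interval of 1.84 to 2.65. On sequence 81 the 2 peaks had 131 and 95 fragments in replicate 1 and 51 and 31 in replicate 2, with ratios of 2.57 (1.85 to 3.62) and 3.06 (2.02 to 4.76). The intervals cover counting error only, and on sequence 81 they were too wide to set these ratios apart from 2.12. Over all short sequences, the interval lay above 1.5 in 153 of 363 pairs and below 1.5 in 85, and it held 1.5 in 125.

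**Figure D5:**
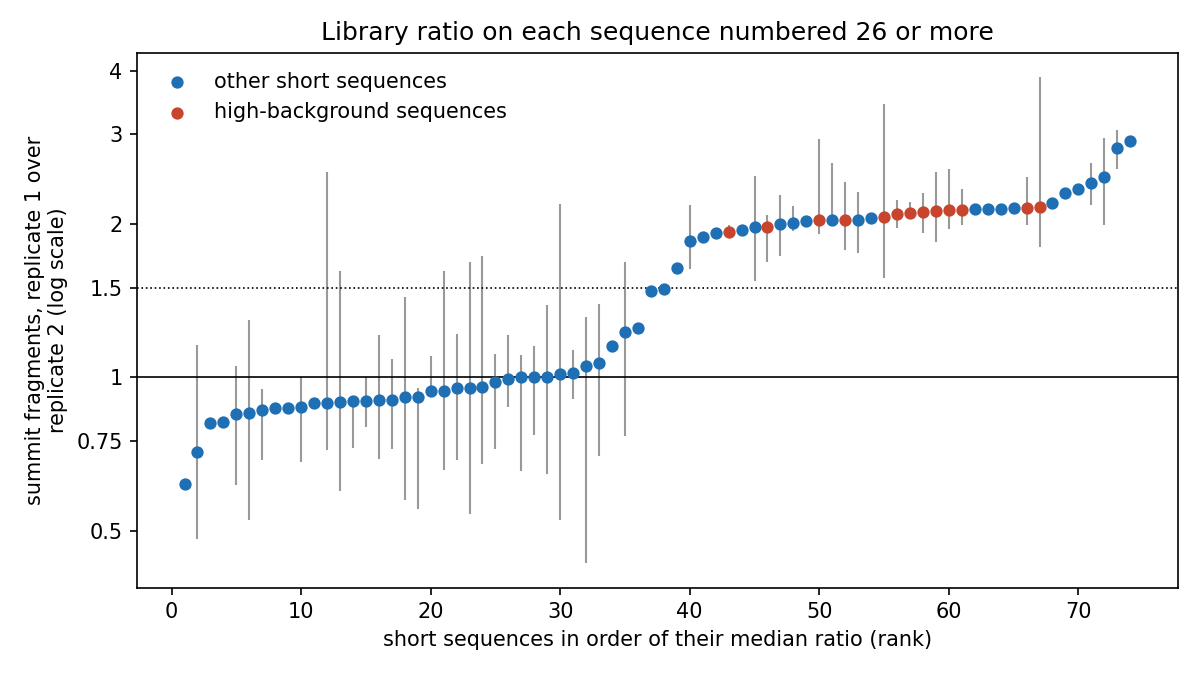
Median ratio of summit fragments, replicate 1 over replicate 2 (log scale), of each of the 74 short sequences with a shared pair, ordered by that median. Grey bars run from the lowest to the highest pair of a sequence, and the solid and dotted lines mark 1 and 1.5. The medians step from 1.25 and below to 1.48 and 1.49 on 2 sequences and then to between 1.64 and 2.90, where all high-background sequences lie.

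The 38 short sequences with a median ratio of 1.5 or less had peaks of ordinary width and spacing but a low background. They carried 242 peaks in replicate 1 and 254 in replicate 2, with a median width of 364 and 356.5 bp, a median spacing of 10.04 and 8.95 kb and 25 and 27 summit fragments in the median. Their median background was 3.70 and 3.83 fragments, and 40.9% and 38.2% of their peaks stood at the genome-wide background, against 14.1% and 13.6% on the scaffolds. The median ratio over their pairs was 0.93, on which they were chosen. The highest median ratios among them were 1.49 on sequence 130, whose only peak had 251 and 168 fragments, and 1.48 on sequence 113, with 71 and 48. The interval of sequence 130, from 1.22 to 1.83, holds 1.5. In all, this was true of 11 of the 22 sequences with a single pair, 7 with a ratio of 1.5 or less and 4 above it, so their side of the limit was not settled at this depth.

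The peaks with the largest fold of each library lay on sequences with a ratio near 2. In replicate 1 they were on sequence 73 from 8040 to 8499 (53.2), on sequence 74 from 117261 to 117732 (53.2) and on sequence 79 from 95388 to 95886 (53.1). In replicate 2 they were on sequence 75 from 47664 to 48120 (51.8), on sequence 79 from 95395 to 95886 (51.6) and on sequence 74 from 117271 to 117721 (51.4). The fold of such peaks came close to a limit. The ratio of summit fragments to background was at most 55.5 in replicate 1 and 56.0 in replicate 2, and 29 peaks on 21 sequences in replicate 1 and 18 on 15 in replicate 2 lay within 2% of it, with 204 to 1275 and 179 to 694 fragments. On the 22 scaffolds it was at most 32.9 and 36.7, leaving out peaks at the genome-wide background. Where no control is given, MACS averages the fragments around a peak into its background. Whether this set the limit was not tested. These peaks were chosen by the ratio of fragments to background, so its small spread among them follows from the choice. Their fragments differed several-fold.

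Summits and edges of shared peaks matched more closely on sequences with a ratio over 1.5. Summits of the 2 libraries lay a median of 1 bp apart on the 13 high-background sequences and 2 bp apart on the 23 others, and 73.1% and 80.0% of the pairs lay within 5 bp. On the 38 sequences with a lower ratio the median was 43 bp and 12.1% lay within 5 bp. On sequences 23 to 25 it was 46 bp and on the 22 scaffolds 39 bp, with 10.6% and 14.4% within 5 bp. Scaffold pairs with a mean of 200 or more fragments still lay a median of 31 bp apart and 27.5% of them lay within 5 bp. On the scaffolds the match improved with the number of fragments, and they had no pair with a mean of 400 or more, where 103 of the 119 high-background pairs lay, so the part of fragment number in the close match was not tested. Starts of shared peaks differed by a median of 7 and 9 bp on the sequences with a ratio over 1.5 and by 37 bp on the others. On the scaffolds this distance was 34 bp over all pairs and 16 bp with a mean of 200 or more fragments. On sequence 145, the 3 summits differed by 0, 1 and 1 bp.

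Over all peaks, sharing was higher on the short sequences than on the scaffolds in both libraries. It was 84.7% in both (84.7 ± 0.0124%, SD, n = 2), against 82.1% and 77.9%. This did not hold at every peak strength. With a -log10 q from 5 to 20, 77.2% and 74.2% were shared on the short sequences, against 83.98% and 76.4% on the scaffolds. With a -log10 q under 5, the share was higher on the short sequences in both libraries. On the high-background sequences 93.4% of the peaks of replicate 1 and 100% of the 118 of replicate 2 were shared, and on the other short sequences 81.0% and 78.8%. Strong peaks without a counterpart lay mostly in replicate 1. Of peaks with a -log10 q of 20 or more on short sequences, 9 of 221 in replicate 1 and 1 of 221 in replicate 2 were not shared. The shared part was thus 95.9% and 99.5%, against 99.9% and 99.6% on the 22 scaffolds, a difference that was not tested. The peak of replicate 2 lay on sequence 78, with 52 fragments. The 9 of replicate 1 lay on sequences 45, 69, 72, 76, 82, 91 and 102. Sequence 102 had no peak in replicate 2, although its peak from 6070 to 6438 had 70 fragments and a fold of 16.2 in replicate 1. The other sequences with peaks in a single library had weaker ones, with 23 fragments on sequence 111 and 11 on sequence 127 in replicate 1, and 13 to 15 on sequence 49 and 14 and 29 on sequence 52 in replicate 2.

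For all sequences numbered 23 or more together, the share of shared peaks was 82.2 ± 2.33% (SD, n = 2), the median spacing 8.34 ± 0.311 kb, the median width 371 ± 6.01 bp, the median fold 5.14 ± 0.155 and the median background 5.23 ± 0.142 fragments. The median library ratio was 1.04 and the median summit offset 31 bp. These pooled values fall between the kinds of sequences described above and describe none of them.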

How the data were processed

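Peaks of 2 ATAC-seq libraries from Cha. luteum leaves were used. The authors cleaned the reads with fastp and mapped them with BWA-MEM to the assembly that they had made. Duplicates and reads with several matches were discarded with SAMtools, and MACS then called peaks library by library. For the genome size given to MACS, a shift or extension of reads, a control sample and a removal of organelle reads, settings were not given in the sources used here. Removal of multi-mapping reads can empty repeated sequence, and counts on copies of other sequences can be incomplete.

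The authors' deposited fold enrichment gives the ratio of summit fragments to background, each peak has a deposited -log10 p and a deposited -log10 q for its summit, and the deposited score is the authors' whole-number form of the -log10 q, which was not used. The lowest deposited -log10 q was 2.00 in both libraries. The fold of MACS is (fragments + 1) / (background + 1), and its p-value is the Poisson probability of more fragments than observed. Solved together, they gave a whole number of fragments for 100% of the peaks (relative tolerance of 0.0001 on the -log10 p). Total reads cannot be read from the peak lists. The fewest summit fragments were 11, so weaker regions are not listed.

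Peaks were assigned by the number of their sequence (23 to 25, and 26 or more) and compared with the 22 scaffolds. Spacing was measured between neighbouring summits of a sequence, and peaks overlapping by at least 1 bp were paired, so that a wide peak could enter 2 pairs. Coordinates count from 1 on the authors' sequences. The sequences named are 23, 24 and 25, the 10 others with the most peaks, those with a high background, and those of the 3 peaks with the largest fold and width in each library; all others were named after their values were seen. The members and lists were chosen with earlier results of these data known. Intervals of ratios are exact binomial ones at 95%. The solution and the pairing were tested on simulated data. Alternatives were a -log10 q of at least 5, an overlap of at least 50% of both peaks, midpoints in place of summits, medians over sequences, and leaving out sequence 23, the high-background sequences or a library. Computation was in Python 3.11.15 with scipy 1.17.1, pandas 2.3.3, numpy 2.4.6 and, for figures, matplotlib 3.10.9.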

Additional observations from a re-analysis of the deposited data

How the results depend on the processing

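The 8 pooled values for sequences numbered 23 or more were recomputed under each alternative that applies to them, which gave 50 recomputed values in all. Of these, 24 stayed within the spread between the libraries (for counts, within 1.5 times, and for the library ratio and the offset, within the binomial interval of the median) and 26 moved. With each library alone the number of peaks was 643 to 678, the share shared 80.5 to 83.8%, the spacing 8.12 to 8.56 kb, the width 366.5 to 375 bp, the fold 5.03 to 5.25 and the background 5.13 to 5.33 fragments. With a -log10 q of at least 5 the spacing was 9.37 kb, the width 395 bp, the fold 5.80, the background 5.67 and the offset 22 bp. Without the high-background sequences the share was 79.0%, the spacing 10.6 kb, the width 362 bp, the background 4.32, the ratio 0.94 and the offset 40 bp. Without sequence 23 the share was 84.8%, the spacing 7.0 kb, the fold 5.49, the background 4.67, the ratio 1.18 and the offset 22 bp. Sequence 23 also held most peaks of sequences 23 to 25, and without it they had 62 peaks on average and a background of 3.28 in place of 5.29. When pairs had to overlap by 50% of both peaks, the share was 74.5% and the offset 22 bp. As medians over sequences the share was 100%, the width 359 bp, the fold 6.14 and the background 3.84. Chosen after seeing the data, only pairs with a mean of 100 or more summit fragments gave a ratio of 2.05 and an offset of 1 bp, and leaving out peaks at the genome-wide background gave a background of 7.04. Beyond what each setting leaves out, the cause of these moves was not tested. No paired analysis was possible because the libraries belong to 1 group. The depth limits ratios of weak pairs, since the counting interval held 1.5 in 125 of 363 pairs on short sequences and in 91 of 189 on sequences 23 to 25.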

Other observations

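On the 22 scaffolds, 5 of 2783 shared pairs with a mean of 100 or more summit fragments had a ratio over 1.5, and they were looked at after the values were seen. The pair on scaffold 2 from 24429254 to 24429483 had 146 fragments over a background of 4.43 in replicate 1 and 64 over 3.18 in replicate 2, a ratio of 2.28. Its fold of 27.0 was the highest on the 22 scaffolds in replicate 1. The other 4 had higher backgrounds, between 10.3 and 21.5 fragments in replicate 1. They lay on scaffold 1 from 44325079 to 44326230 (ratio 2.84), on scaffold 4 from 49938614 to 49939565 (2.34), on scaffold 6 from 6410697 to 6411595 (1.58) and on scaffold 21 from 1507367 to 1508882 (2.93).

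Among strong pairs of short sequences, the lowest ratio was that of sequence 103 from 2469 to 3123, with 116 fragments in replicate 1 and 210 in replicate 2 (0.55), and the peaks of both libraries began at the same base. First peaks began within 1 kb of base 1 on 11 short sequences in each library.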
